A study of Homo sapiens with 16 samples.

Results

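The nuclear factor I (NFI) family comprises the transcription factors NFIA, NFIB, NFIC and NFIX, and its levels are described here in HCC70 cells carrying short hairpin RNA (shRNA) constructs. The members were chosen by gene symbol, with earlier results of these data known. All 4 were present in the deposited table of 11282 genes, and all 4 passed the filter on low values that left 10826 genes for testing. HCC70 cells are a cultured line from a human triple-negative breast tumour and serve as a model of the basal-like subtype. The study asked which regulators shape the mix of cell states in such cells, and NFIB was among the factors targeted.

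All cells were HCC70 infected with an shRNA construct. The NFIB, KLF5, RBPJ and FOXA1 groups carried hairpins against those transcription factors, and each group had 2 libraries with a different hairpin identifier each. The controls were shRFP, shLACZ and shLUC, hairpins named for genes that human cells lack, and plko, named for the vector backbone. The labels do not say whether both plko libraries carry the empty vector. Each control construct also had 2 libraries with different identifiers, so that 8 control libraries served every target and the comparisons below share them. Libraries are called 1 and 2 as in the labels. A single cell line was used, so separate hairpins and wells, not separate donors, make up the spread. The labels name no repeat of any 1 hairpin, so p-values measure only the spread between these samples, in which hairpin and culture cannot be told apart.

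NFI proteins bind DNA as dimers of any pair of members, through a conserved amino-terminal domain, to a palindrome of the half-site TTGGC and its mirror GCCAA. They act as activators or repressors at promoters and enhancers and open chromatin for other factors. Because the members bind the same site, a relative can in principle stand in for a lost one, and the question put to these data was whether NFIA, NFIC or NFIX RNA was higher where NFIB was targeted. NFIB is best known for lung and brain development and for its amplification in some small cell lung and triple-negative breast cancers, and NFIC for tooth root formation and for milk protein genes in the mammary gland.

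The 2 promoter windows below are shown because NFIB and NFIC were the members with the highest levels in the KLF5 hairpin libraries described further on, and KLF5 binds boxes with the letters CACCC. Each window holds 250 bases before and 50 after a RefSeq transcription start on GRCh38.p14, read 5′ to 3′ on the gene's strand, and is the first listed for its gene. The NFIB window is chr9:14322338-14322637 on the minus strand and the NFIC window is chr19:3359380-3359679 on the plus strand. Capitals mark matches to TTGGC or CACCC on either strand, so that GCCAA and GGGTG also count.
NFIB: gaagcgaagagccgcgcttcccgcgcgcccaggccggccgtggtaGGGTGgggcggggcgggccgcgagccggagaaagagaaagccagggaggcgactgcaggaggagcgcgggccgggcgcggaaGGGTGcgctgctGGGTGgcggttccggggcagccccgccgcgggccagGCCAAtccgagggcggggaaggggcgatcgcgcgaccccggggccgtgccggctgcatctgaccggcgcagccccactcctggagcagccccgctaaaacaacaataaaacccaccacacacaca
NFIC: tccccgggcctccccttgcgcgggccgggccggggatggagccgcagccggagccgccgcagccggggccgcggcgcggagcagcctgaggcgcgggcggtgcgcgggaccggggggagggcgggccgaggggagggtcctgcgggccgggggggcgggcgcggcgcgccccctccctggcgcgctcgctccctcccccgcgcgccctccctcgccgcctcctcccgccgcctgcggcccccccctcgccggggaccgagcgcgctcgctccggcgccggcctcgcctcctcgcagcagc

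The NFIB window held 1 match to the NFI half-site and 3 to the CACCC box. The NFIC window held neither. RefSeq listed 19 start windows for the family, 10 for NFIB, 3 for NFIA, 1 for NFIC and 5 for NFIX, and windows of a gene can overlap. The half-site TTGGC was in 6 of the NFIB windows, 1 of the NFIA windows, none of the NFIC windows and 2 of the NFIX windows, against 45.6% of all 35116 promoter windows. The CACCC box was in 6 of the NFIB windows, 2 of the NFIA windows, none of the NFIC windows and 3 of the NFIX windows, against 59.9% of all. The full palindrome, TTGGC and GCCAA with 5 bases of any kind between them, was in 0 of the 19 windows, against 0.0285% of all. Such a match describes letters in a window and is not evidence that a factor binds there.

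The libraries were of unequal depth, with 375713 reads (plko 1) to 3090666 reads (RBPJ 1) recovered from the deposited values, an 8.23-fold range. Values below are the deposited normalized signal, scaled so that libraries can be compared. Markers of basal and of luminal epithelium were both present. Median signals over 16 libraries were 2772 for KRT5, 885 for KRT17 and 48.5 for KRT14, the basal keratins, and 109 for the growth factor receptor EGFR, but 2.82 for the basal lineage factor TP63. Among luminal genes KRT7 had 1405, KRT19 1003, KRT8 184 and KRT18 42.9, while the hormone receptors ESR1 and PGR had 4.04 and 1.46. The leukocyte gene PTPRC had 1.88 and CD68, a lysosomal macrophage marker, 22.7. In libraries of the other targets, the targeted RNA was at 66.0% and 39.4% (KLF5), 84.3% and 16.6% (RBPJ) and 22.8% and 54.8% (FOXA1) of the control mean. In bulk RNA, fewer cells expressing a gene and less RNA per cell cannot be told apart, and this holds for every value below.

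NFIB (ENSG00000147862, chromosome 9), the targeted gene, had a signal of 237.81 in NFIB 1 and 42.19 in NFIB 2, against 308.54 to 607.2 in the 8 controls with a mean of 384.49 ± 102.11 (SD, n = 8). Both hairpin libraries were below every control, as was so for 2.85% of tested genes, and below every library of the KLF5, RBPJ and FOXA1 groups except RBPJ 2, whose 201.04 was under NFIB 1. The remaining NFIB RNA was 61.8% of the control mean in NFIB 1 and 11% in NFIB 2, and rested on 348 and 100 recovered reads. The 2 hairpins therefore left very different amounts of the transcript, and NFIB 2 was the library with the stronger reduction.

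The log2 fold change of NFIB with its hairpins was -1.89 ± 0.39 (SE), with a 95% interval of -2.69 to -1.08. This was the fourth smallest p of 10826 genes in that comparison, but limma's Benjamini-Hochberg adjusted p was 0.2. By the same test 1 gene of 10826 passed an adjusted p of 0.05, which is 0.00924% of genes, and 721 genes had an unadjusted p under 0.05. The gene that passed was PABPC1, a cytoplasmic poly(A)-binding protein, at -1.17 ± 0.18 (SE) and an adjusted p of 0.0227. An exact 2-sided permutation of the 2 NFIB libraries against the 8 controls gave p = 0.0444 for NFIB, the smallest that 45 arrangements can give. NFIB 2 alone against the 8 controls was at -3.12 with a limma adjusted p of 0.000148, and NFIB 1 alone was at -0.65 with an adjusted p of 0.635. The call on the targeted gene thus turned on which hairpin library entered the fit, and adjusted p ran between 0.000148 and 0.635 over all alternatives.

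**Figure D1:**
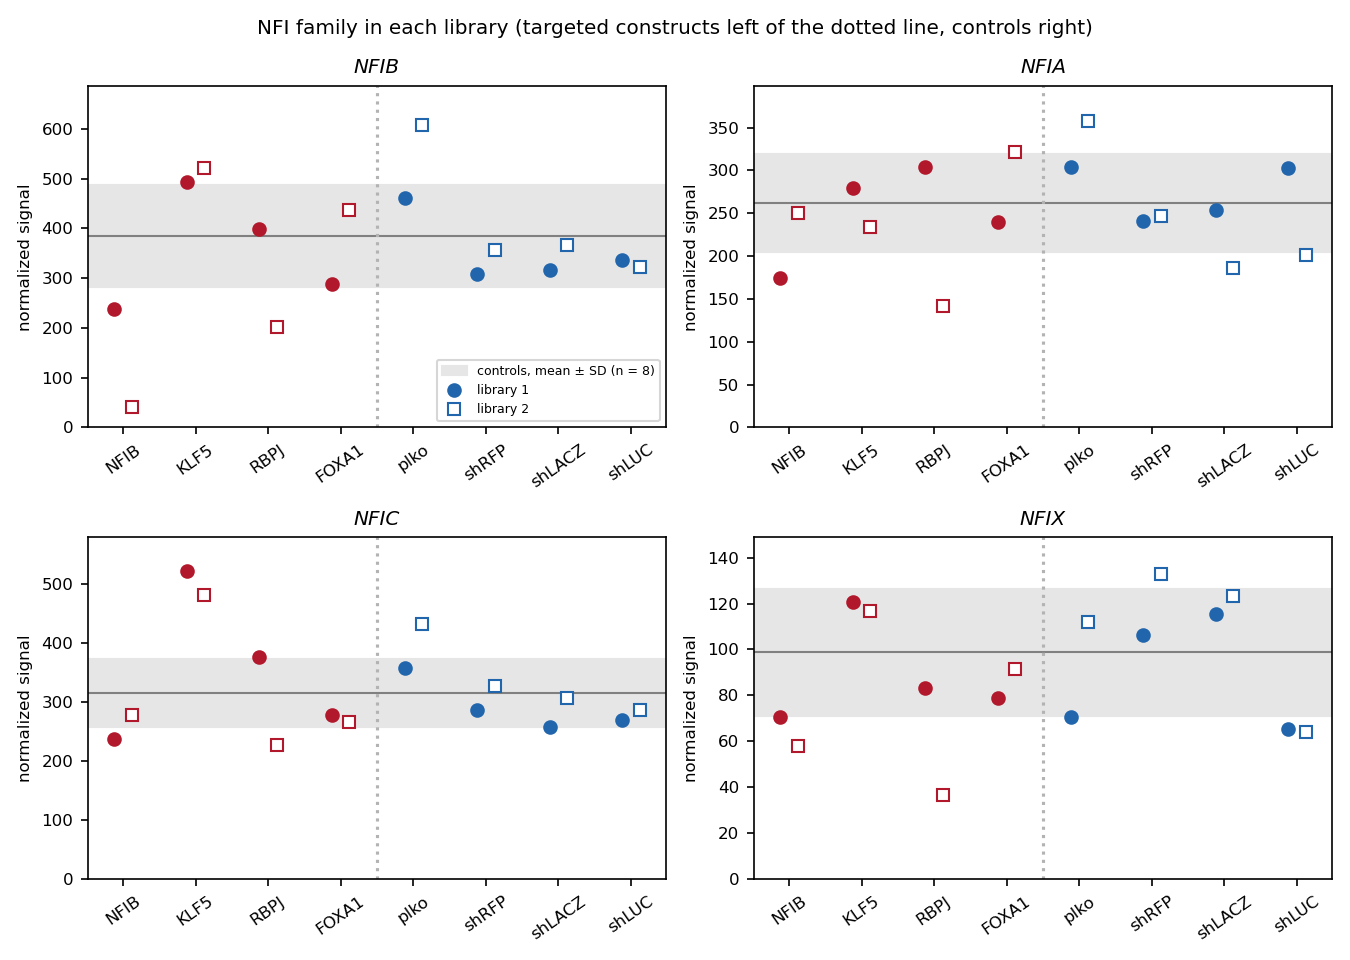
Deposited normalized signal (vertical axes, each starting at 0) of NFIB, NFIA, NFIC and NFIX in each of 16 libraries, by construct, with library 1 as filled circles and library 2 as open squares. The line and band are the mean and SD of the 8 controls. NFIB is lowest in NFIB 2 (42.19), NFIC is highest in both KLF5 libraries (521.79 and 481.87), and NFIA, NFIC and NFIX are lowest in RBPJ 2.

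None of the 3 relatives was called higher with the NFIB hairpins by limma, by edgeR or by DESeq2, and each had a mean log2 fold change below 0. NFIA (ENSG00000162599, chromosome 1), a factor of glial and erythroid development, had 174.26 in NFIB 1 and 250.16 in NFIB 2, against 186.33 to 358.12 and a mean of 261.79 ± 57.26 (SD, n = 8) in the controls. NFIB 1 was below all 8 controls and NFIB 2 lay inside their range. NFIC (ENSG00000141905, chromosome 19) had 237.81 in NFIB 1 and 277.58 in NFIB 2, against 257.66 to 432.47 and a mean of 315.48 ± 57.10 (SD, n = 8) in the controls. NFIB 1 was again the lower library and stood below all controls, while NFIB 2 did not. NFIX (ENSG00000008441, chromosome 19), a factor of muscle and neural stem cell development, had 70.39 in NFIB 1 and 57.79 in NFIB 2, against 63.95 to 132.96 and a mean of 98.76 ± 27.74 (SD, n = 8) in the controls. Here NFIB 2 was below every control and NFIB 1 was not. No relative had both NFIB libraries outside the controls, while 6.12% of the tested genes did. NFIB 1 was below every control for 12.9% of tested genes and NFIB 2 for 9.56%.

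The log2 fold changes of the relatives with the NFIB hairpins were -0.29 ± 0.26 (SE) for NFIA, -0.28 ± 0.21 for NFIC and -0.57 ± 0.29 for NFIX. The limma adjusted p was 0.825 for NFIA, 0.803 for NFIC and 0.749 for NFIX, and the exact 2-sided permutation p was 0.267, 0.133 and 0.133 in that order. The median log2 fold change of all tested genes in this comparison was 0.05. The 95% intervals give the size of increase that these libraries still allow. For NFIA the interval was -0.83 to 0.24, with an upper end at 1.18 times the control level. For NFIC it was -0.70 to 0.15, ending at 1.11 times, and for NFIX -1.18 to 0.04, ending at 1.03 times. A mean increase larger than these ends lay outside the intervals, and a smaller one was not excluded with 2 libraries. The ends are not limits of detection.

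The 2 hairpins were also set singly against the 8 controls, as they left such different amounts of NFIB. In NFIB 2, which kept the least NFIB, NFIA was at -0.04 on the log2 scale, NFIC at -0.17 and NFIX at -0.71. The upper ends of their 95% intervals were 1.60, 1.33 and 1.09 times the control level in that order, in a fit that takes the spread of this lone library from the other groups. In NFIB 1, NFIA was at -0.55, NFIC at -0.39 and NFIX at -0.43. The library with less NFIB thus had more NFIA and NFIC signal than the other NFIB library, and less NFIX. No limma adjusted p of a relative in a single NFIB library was below 0.682.

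The values against controls depended in part on plko. NFIB was higher in plko than in the other 6 controls, with a signal of 461.10 and 607.20 in plko against 308.54 to 366.23 in the 6 hairpin controls, and a log2 difference of 0.66 ± 0.16 (SE) with a limma adjusted p of 0.0119. By that test 9.41% of genes differed between plko and the other controls. NFIA had a difference of 0.49 (adjusted p = 0.0985), NFIC of 0.45 (0.083 as adjusted p) and NFIX of -0.13 (adjusted p = 0.806) in the same limma fit. Against the 6 hairpin controls only, the NFIB hairpins were at -1.72 for NFIB (adjusted p = 0.172), -0.17 for NFIA, -0.16 for NFIC and -0.60 for NFIX. The upper ends of the intervals were then 1.25 times the control level for NFIA, 1.16 times for NFIC and 0.994 times for NFIX. Set singly against these 6, NFIB 2 was at 0.09 for NFIA, -0.05 for NFIC and -0.74 for NFIX. NFIB 1 was at -0.43, -0.28 and -0.46 in the same order.

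NFIX varied among the hairpin controls themselves. Its signal was 65.54 and 63.95 in shLUC, against 106.25 and 132.96 in shRFP and 115.45 and 123.15 in shLACZ. The shLUC values lay between those of the 2 NFIB libraries, so the level of NFIX with NFIB hairpins was also seen with a control hairpin. Over the 4 control constructs, limma's F test gave adjusted p of 0.112 for NFIX, 0.124 for NFIB, 0.388 for NFIA and 0.373 for NFIC, and 3.01% of genes passed it.

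**Figure D2:**
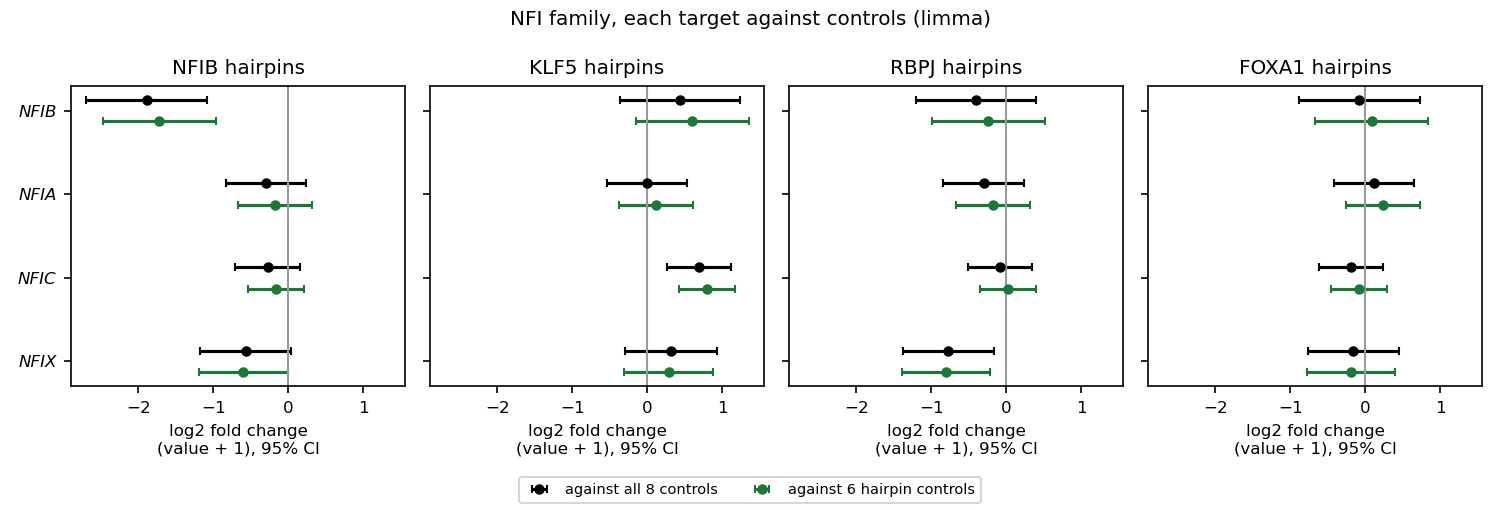
Log2 fold change on the log2(value + 1) scale (horizontal axes) of each NFI member with NFIB, KLF5, RBPJ and FOXA1 hairpins against controls, with limma 95% intervals, against all 8 controls (black) and against the 6 hairpin controls (green). With the NFIB hairpins the interval of NFIB lies wholly below 0 and those of NFIA and NFIC span it. That of NFIX spans 0 against all 8 controls and ends just below 0 against the 6. With the KLF5 hairpins the interval of NFIC lies above 0. With the RBPJ hairpins that of NFIX lies below 0 against both sets of controls.

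The summed signal of the 3 relatives was lower in the NFIB libraries than the control mean. NFIA, NFIC and NFIX together had 482.45 in NFIB 1 and 585.54 in NFIB 2, against 551.07 to 902.74 and a mean of 676.02 ± 107.12 (SD, n = 8) in the controls. NFIB 1 was below all controls, at 71.4% of their mean, and NFIB 2 was inside their range, at 86.6%. The sum of all 4 members was 720 in NFIB 1 and 628 in NFIB 2, against 874 to 1510 in the controls, so both NFIB libraries had a smaller family total than every control. RBPJ 2 had a smaller total than both NFIB libraries, 607, and its relatives summed to 406.36. No test is attached to these sums. Counting from the 3′ end gives about 1 tag per transcript whatever its length, so the sums follow transcripts and not bases.

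NFIB made up 33.0% of the family signal in NFIB 1 and 6.72% in NFIB 2, against 32.7% to 40.2% in the controls with a mean of 35.9% ± 2.73 (SD, n = 8). In NFIB 1 the share of NFIB lay at the low end of the controls, as the relatives were also low in that library. In NFIB 2 it lay below every other library. The family total was below every control in both, and also in RBPJ 2.

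**Figure D3:**
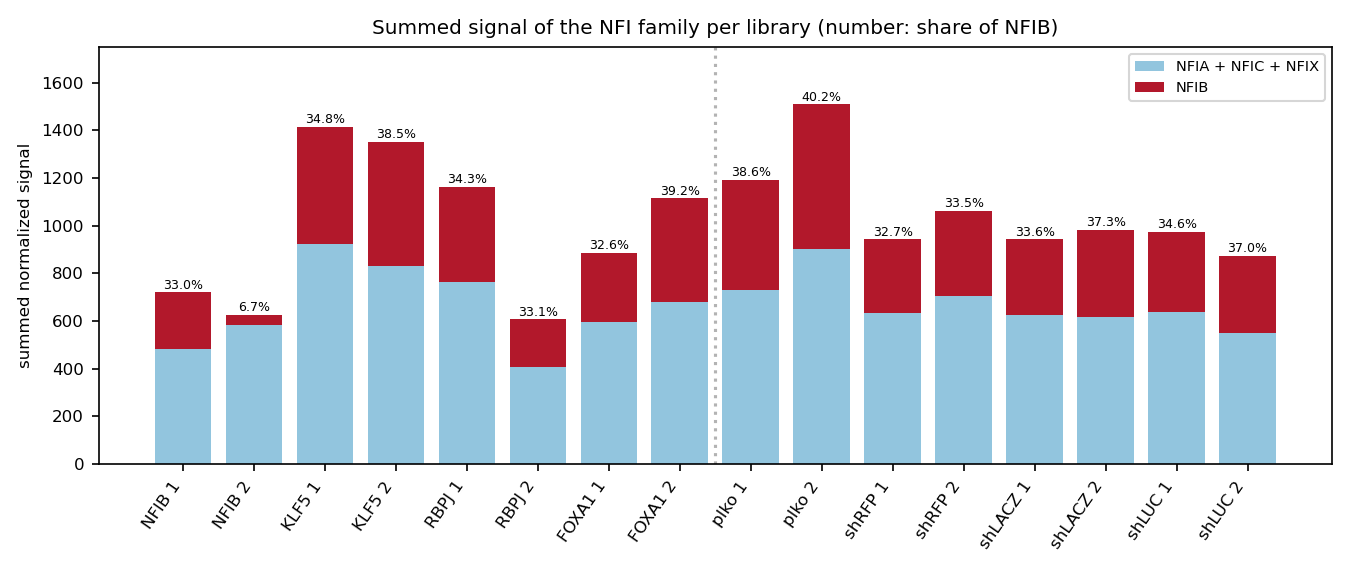
Summed normalized signal per library (vertical axis from 0), with NFIA, NFIC and NFIX in blue and NFIB in red on top, targeted constructs left of the dotted line and controls right. The number over each bar is the share of NFIB in the sum. The blue part is 482.45 in NFIB 1 and 585.54 in NFIB 2, against 551.07 to 902.74 in the controls.

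With the KLF5 hairpins, NFIC was the member with the most distinct level. KLF5 is a zinc-finger factor of epithelial cells. NFIC had 521.79 in KLF5 1 and 481.87 in KLF5 2, against 257.66 to 432.47 in the 8 controls, and these were the 2 highest NFIC values of the 16 libraries. The log2 fold change was 0.69 ± 0.21 (SE), with an interval of 0.26 to 1.11, which is 1.61 times the control level. The limma adjusted p of 0.0547 was just over the threshold, and the exact 2-sided permutation p was 0.0444. In that comparison 5.37% of tested genes passed the threshold, 2.3% of tested genes were called higher, and 9.31% had both KLF5 libraries above all controls. NFIC passed against the 6 hairpin controls, at 0.80 with an adjusted p of 0.00494, where 12.2% of genes passed, and was at 0.35 with an adjusted p of 0.446 against plko alone, these being the ends of the range over all alternatives. Without KLF5 1 or KLF5 2 the adjusted p of NFIC was 0.364 and 0.241, and 87 and 99 genes passed.

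NFIB had 492.64 and 521.54 in the KLF5 libraries, against 308.54 to 607.2 in the 8 controls. Both values were above each of the 6 hairpin controls, which held for 14.3% of tested genes, and inside the range of plko. Its log2 fold change was 0.43 ± 0.39 (SE) with a limma adjusted p of 0.585, and 0.60 with an adjusted p of 0.315 against the 6 hairpin controls. NFIA had 279.38 and 233.35 and NFIX had 120.85 and 116.68 with the KLF5 hairpins, inside the range of the controls in each case. Their log2 fold changes were -0.01 for NFIA and 0.32 for NFIX, with limma adjusted p of 0.996 and 0.6.

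The RBPJ hairpins target the DNA-binding effector of Notch signalling, and their 2 libraries stood far apart for the whole family. NFIB had 398.82 in RBPJ 1 and 201.04 in RBPJ 2, against 308.54 to 607.2 in the controls. NFIA had 303.34 and 142.25, NFIC 377.19 and 227.60, and NFIX 83.30 and 36.51, in the order RBPJ 1 and RBPJ 2. RBPJ 2, the library with the stronger loss of RBPJ, was the lowest of all 16 libraries for NFIA, NFIC and NFIX, and was below every control for NFIB. RBPJ 2 was the lowest library for 8.7% of tested genes and below every control for 14.1%. Its summed marker signals also lay outside the controls, at 8584 against 3270 to 6407 for basal, 4660 against 2500 to 3838 for luminal, 2258 against 3421 to 5405 for luminal progenitor and 51.2 against 8.82 to 34.3 for leukocyte markers. The leukocyte sum held only 2 of 8 listed genes, PTPRC and CD68, with PTPRC at most 3.55 in any library. The part of these marker differences in the NFI values was not tested.

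None of the members passed with the RBPJ hairpins, where 0.0277% of genes did. The log2 fold changes were -0.40 ± 0.39 (SE) for NFIB, -0.30 ± 0.26 for NFIA, -0.09 ± 0.21 for NFIC and -0.77 ± 0.29 for NFIX. The smallest limma adjusted p among them was that of NFIX, 0.78. Without RBPJ 1, NFIX was at -1.36 with an adjusted p of 0.0559, and without RBPJ 2 it was at -0.19. Without RBPJ 2, NFIB, NFIA and NFIC had positive values of 0.090, 0.24 and 0.28.

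With hairpins against FOXA1, a pioneer factor of luminal cells, the family stayed close to the controls. NFIB had 288.37 and 437.10, against 308.54 to 607.2 in the controls, and FOXA1 1 was a little below the lowest control. NFIA had 239.65 and 321.44, NFIC 278.50 and 265.86 and NFIX 79.01 and 91.63, all inside the range of the controls. The log2 fold changes ran between -0.19 (NFIC) and 0.11 (NFIA), and no limma adjusted p was under 0.992. In that comparison 0.00924% of genes passed. The 95% interval of NFIB was -0.88 to 0.73 and that of NFIC -0.62 to 0.23. Mean changes inside these intervals were not excluded with 2 libraries.

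The NFIB hairpins were also set directly against each other target, in the same limma fit. Against the KLF5 hairpins, NFIB differed by -2.32 ± 0.49 (SE) with an adjusted p of 0.0131, and NFIC by -0.96 ± 0.26 with an adjusted p of 0.0492. The difference of NFIB was -3.56 without NFIB 1 and -1.09 (adjusted p = 0.192) without NFIB 2, and its call was also lost without KLF5 1 (adjusted p = 0.0966) or KLF5 2 (adjusted p = 0.104). NFIC had 237.81 and 277.58 with the NFIB hairpins and 521.79 and 481.87 with the KLF5 hairpins. NFIX differed by -0.89 ± 0.37 (adjusted p = 0.212) and NFIA by -0.29 ± 0.33 (adjusted p = 0.715). By that test 2.79% of genes passed. The call on NFIC stood at the edge of the threshold, was lost in 15 of 27 alternatives chosen after seeing the data, and its adjusted p ran between 0.00935 and 0.254. Against the RBPJ hairpins NFIB differed by -1.48 (adjusted p = 1) and against the FOXA1 hairpins by -1.81 (adjusted p = 0.316), with limma passing 0% and 0.0277% of genes. Without NFIB 1 both differences passed, at -2.72 (adjusted p = 0.012) against RBPJ and -3.04 (adjusted p = 0.00164) against FOXA1, and without NFIB 2 they were -0.25 and -0.58. For the 3 relatives, no difference between NFIB and RBPJ or FOXA1 hairpins passed. The intervals for NFIB minus RBPJ were -0.67 to 0.68 for NFIA, -0.73 to 0.35 for NFIC and -0.56 to 0.97 for NFIX, and those for NFIB minus FOXA1 were -1.09 to 0.27, -0.62 to 0.46 and -1.18 to 0.36 in the same order.

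Ordered by mean signal over the 2 libraries of a construct, NFIB ran plko 534, KLF5 507, FOXA1 363, shLACZ 342, shRFP 332, shLUC 330, RBPJ 300 and NFIB 140. Only 1 of the 7 neighbouring pairs, KLF5 and FOXA1, had libraries that did not overlap, and even the NFIB group overlapped RBPJ through RBPJ 2. For NFIA no neighbours were apart, with means of 212 in the NFIB group (the lowest) and 331 in plko (the highest). For NFIC the separated neighbours were KLF5 (502) from plko (395) and plko from shRFP (307), and the NFIB group was lowest at 258. For NFIX they were KLF5 (119) from plko (91.4) and FOXA1 (85.3) from shLUC (64.7). The NFIB group (64.1) was next to lowest, above RBPJ (59.9). How often neighbouring constructs are apart over all genes was not counted, so these gaps say nothing particular about the family.

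Across libraries the relatives varied in the same direction as NFIB more than in the opposite one. Pearson's r with NFIB on the log2 scale over 16 libraries was 0.35 for NFIA, 0.52 for NFIC and 0.54 for NFIX, while the median gene had 0.014. Over the 14 libraries without NFIB hairpins r was 0.73 for NFIA, 0.83 for NFIC and 0.61 for NFIX, and Spearman's rho was 0.57, 0.78 and 0.43 in that order. Among 6391 genes with a mean signal of at least 20, NFIA, NFIC and NFIX ranked 1045, 340 and 268 by r over 16 libraries and 134, 20 and 506 over the 14. Without RBPJ 2 and plko 2, the farthest from the median of NFIB, r over 12 libraries was 0.36 for NFIA, 0.79 for NFIC and 0.22 for NFIX, so that the relation of NFIA and NFIX rested on those libraries. These are descriptions over libraries that share constructs, depth and scaling, and hold no test.

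**Figure D4:**
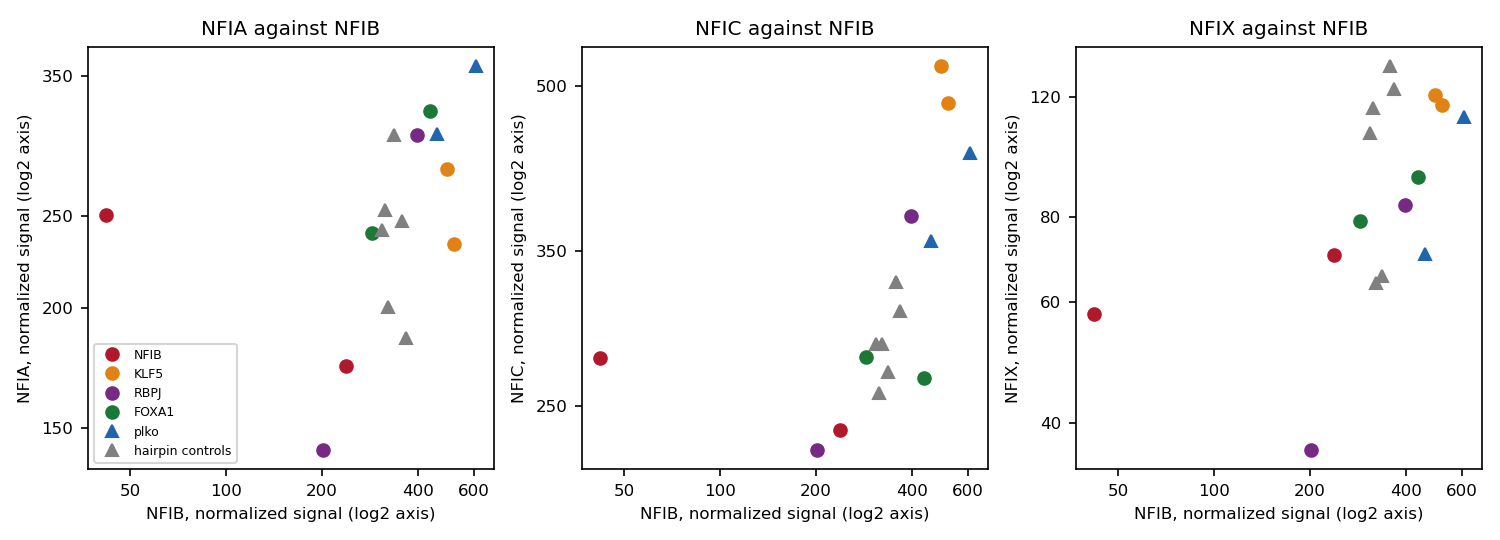
Normalized signal of NFIA, NFIC and NFIX (vertical log2 axes) against that of NFIB (horizontal log2 axes) in 16 libraries, coloured by construct, with controls as triangles. NFIB 2 lies alone at the left with a signal of 250.16 for NFIA, 277.58 for NFIC and 57.79 for NFIX.

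The genes whose pattern over 16 libraries was most like NFIB were DSG2 (r = 0.86), a desmosomal cadherin, PALLD (0.82), an actin-associated protein, BCL2L2 (0.81), an anti-apoptotic BCL2 relative, TSNAX (0.81), a partner of translin, and C1orf109 (0.81). The NFIB libraries weigh on this order: without them r was 0.58 for DSG2, 0.52 for PALLD, 0.53 for BCL2L2, 0.79 for TSNAX and 0.48 for C1orf109. DSG2 had 167 and 112 in the NFIB libraries, against 170 to 236 in the hairpin controls. BCL2L2 had 19.8 and 8.86, against 16.9 to 41.8. The patterns most unlike NFIB were those of CES2 (-0.78), a carboxylesterase, HPSE (-0.75), the enzyme heparanase, and CENPM (-0.72), a centromere protein. HPSE had 33.5 and 73.4 in the NFIB libraries, against 37.1 to 50.7 in the hairpin controls, and was high in NFIB 2 only.

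Among 12 genes for proteins that work with NFI factors, all were tested with the NFIB hairpins and 0 passed in either direction, with a median log2 fold change of 0.06, against 0.05 for all genes. The 3 of smallest p were the basal transcription factors TBP (0.52 ± 0.24, SE) and GTF2B (0.31 ± 0.22) and the cofactor HCFC1 (0.24 ± 0.20). TBP had 25.3 and 26.6 with the NFIB hairpins, against 17.9 ± 2.67 (SD, n = 8) and at most 22.8 in the controls. FOXA1, found together with NFI proteins on DNA in prostate cells, was at -0.01. The other targeted factors of the series, KLF5 and RBPJ, were at 0.22 and -0.15 with the NFIB hairpins, and neither passed.

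Of 22 genes known to respond to NFI proteins, mostly in other tissues, 11 were in the table, and 0 of these 11 passed, with a median of 0.17. The milk protein genes WAP, LALBA and CSN2 and the glial genes GFAP and FABP7 were not in the table. The cell cycle inhibitor CDKN1A had 469 and 322, against 243 ± 91.6 (SD, n = 8) in the controls, a log2 fold change of 0.80 ± 0.38 (SE). NFIB 2 was inside the range of the controls, which reached 344. The epithelial factor KLF4 was at 0.57 ± 0.32, with 69.7 in NFIB 1 and 25.7 in NFIB 2, against 28.6 ± 4.78 (SD, n = 8), and was high in NFIB 1 only. EZH2, the methyltransferase of histone H3 that NFIB is reported to repress in mouse brain, was at 0.47 ± 0.31, with 68.3 and 74.2 against 54.1 ± 15.2 (SD, n = 8). The smallest limma adjusted p of the list was 0.744.

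The neighbours of NFIB on chromosome 9 gave 10 tested genes of 13 listed, and 0 passed with the NFIB hairpins, at a median of 0.16. Those of smallest p were FREM1 (1.24 ± 0.68, SE), CCDC171 (0.51 ± 0.53) and TTC39B (0.25 ± 0.28), and the first had a signal of only 6.83 and 2.95 against 1.72 ± 1.41 (SD, n = 8). The 2 tested genes next to NFIB in the annotation, MPDZ and ZDHHC21, were at 0.06 and 0.14. Among 22 epithelial transcription factors, 16 were tested and 0 passed, at a median of -0.05. EHF, an epithelial ETS factor, was at -1.04 ± 0.37 (SE) with 4.10 and 9.70, against 14.7 ± 4.26 (SD, n = 8), and its limma adjusted p was 0.609. NFIB 2 was inside the range of the controls, which went down to 9.35. After KLF4 came GRHL1, a grainyhead factor of epithelial barriers, at -0.31 ± 0.22.

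Markers of other cells were checked beside these lists. Of 11 fibroblast and endothelial markers 6, COL3A1, LUM and PECAM1 among them, were not in the table, and the summed signal of the other 5 was 49.2 in NFIB 1 and 51.0 in NFIB 2, against 13.2 to 31.5 in the controls. COL1A1, a fibrillar collagen, gave the largest part of this sum in both, with 24.6 and 32.5 against 11.8 ± 6.05 (SD, n = 8), and it did not pass limma's threshold. The KLF5 libraries had a like sum of 46.2 and 50.2. The summed basal marker signal was 7017 in NFIB 1 and 4015 in NFIB 2, against 3270 to 6407 in the controls, with KRT17 at 1800 in NFIB 1 and 403 in NFIB 2, against at most 1329. Luminal, progenitor and leukocyte sums of both NFIB libraries lay inside the controls. Whether these sums bear on the NFI values was not tested. Of 8 luminal progenitor markers 7 were tested and 0 passed with the NFIB hairpins, at a median of -0.65. Of the 7, 5 were below 0, with PROM1 at -1.17 ± 0.40 (SE) and KIT at -1.49 ± 0.63 the lowest. The 2 above 0 were SLPI (0.32) and LTF (0.17). PROM1 had 4.78 in NFIB 1 and 12.7 in NFIB 2, against 11.6 to 30.0 in the controls. KIT had 4.78 and 11.0, against 10.1 to 134.6, so NFIB 2 was inside the control range for both. Of the lists named here, edgeR and DESeq2 called 0 members with the NFIB hairpins. At an unadjusted limma p under 0.05, which 6.66% of all tested genes had, 1 partner (TBP), 1 responsive gene (CDKN1A), 0 neighbours, 1 epithelial factor (EHF), 2 progenitor markers (PROM1 and KIT) and 2 fibroblast or endothelial markers (COL1A1 and ENG) were counted.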

How the data were processed

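RNA of 16 libraries from HCC70 cells was counted from the 3′ end after barcoding in batches of 12 samples and amplification in the manner of CEL-Seq, with some samples run again, per the labels' protocols. The labels do not record which samples shared a batch or were run again. A single table of signal was deposited, which by its title the authors had normalized with DESeq2, and the submitters' processing notes name the build GRCh37. Aligner, counting tool, annotation, strand setting, molecular identifiers and filters were not given in the sources used here. Dividing each library by its smallest step gave whole reads for 100% of deposited values, to within 0.05 read. Left unused were 2 columns that belong to no sample in the labels. Of 11282 identifiers 11259 matched a symbol.

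The test was limma 3.58.1 (R 4.3.3) with a mean-variance trend on log2(value + 1), with 5 levels (all controls, NFIB, KLF5, RBPJ and FOXA1) over all 16 libraries, for genes that reached a value of 5 in 2 or more libraries. The threshold was a Benjamini-Hochberg adjusted p of 0.05 over 10826 genes, and fold changes on this scale understate those of low genes. Single members also had exact 2-sided permutation tests. Alternatives were edgeR 4.0.16 and DESeq2 1.42.0 on recovered reads, other pseudocounts, filters and control sets, a replicate block and leaving out each library. The fits were tested on simulated data with known changes.

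Named genes were the 4 members, the 5 genes of highest and 3 of lowest correlation with NFIB, and from each list the 3 of smallest p with the NFIB hairpins. MPDZ, ZDHHC21, KLF5, RBPJ, FOXA1, PABPC1 and the cell type markers were named beside that rule after their values were seen. Members and lists were chosen with earlier results of these data known. Library numbers were not used to pair samples in the main fit. In 9 of 28 pairs of constructs the same-numbered libraries deviated together with a correlation over 0.1 (range -0.287 to 0.291). Whether some same-numbered libraries shared a batch was not tested. Every pair of libraries of a construct differed beyond sampling noise (chi-square over its degrees of freedom, 1.96 to 18.8). NFIB shared no stretch of 31 bases with the transcripts of a relative, while NFIC and NFIX shared 50 such stretches, and 0 lay in the last 500 bases of both. Promoter windows came from RefSeq, GRCh38.p14.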

Additional observations from a re-analysis of the deposited data

Results flagged for a closer look

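The effect of the NFIB hairpins differed from that of the KLF5 hairpins for 2 members by limma's test of the difference, with adjusted p of 0.0131 and 0.0492. NFIB differed by -2.322 on the log2 scale, with a signal of 237.81 and 42.19 in the NFIB libraries and 492.64 and 521.54 in the KLF5 libraries. This is the gene the NFIB hairpins target. Its difference was -1.09 (adjusted p = 0.192) without NFIB 2, and the call was also lost without KLF5 1 (adjusted p = 0.0966) or KLF5 2 (adjusted p = 0.104). Over all alternatives its adjusted p ran between 0.000185 and 0.192. NFIC differed by -0.962, with 237.81 and 277.58 in the NFIB libraries and 521.79 and 481.87 in the KLF5 libraries, and its adjusted p ran between 0.00935 and 0.254 over the alternatives. Differences were tested for the 4 members between NFIB and 3 other targets, and no other passed.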

How the results depend on the processing

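With the NFIB hairpins, NFIA, NFIC and NFIX kept a log2 fold change below 0 and an adjusted p over 0.05 in all 28 alternatives. A further fit, of NFIB 2 alone against the 6 hairpin controls, was not among these and put NFIA at 0.09. NFIB passed against plko alone (-2.38, adjusted p = 0.00928) and without NFIB 1, and ran between -3.12 and -0.65 as single libraries were left out. The count of genes changed was 0 by edgeR with TMM (721 genes had an unadjusted limma p under 0.05), 2 with the authors' size factors, 11 by DESeq2, 477 against plko alone, 0 with only NFIB and control libraries, and 0 to 2 as single libraries were left out. With the library number as a replicate block, NFIB had an adjusted p of 0.216 and the count was 1, and the block lost the call on NFIC between NFIB and KLF5 hairpins (adjusted p = 0.0562). Correlations with NFIB over 14 libraries moved to 0.73 (NFIA) and 0.83 (NFIC).

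Signs turned for the values that follow. Against 6 hairpin controls NFIA was at 0.12 (KLF5), NFIC at 0.024 (RBPJ) and NFIB at 0.088 (FOXA1), and against plko NFIB was at -0.062 (KLF5) and NFIA at -0.25 (FOXA1). NFIA between NFIB and RBPJ hairpins was at -0.066 and -0.073 by edgeR (TMM, then the authors' size factors) and -0.064 by DESeq2. As libraries were left out, NFIA with KLF5 hairpins ran between -0.14 and 0.12. With RBPJ hairpins NFIB ran between -0.89 and 0.090, NFIA between -0.85 and 0.24 and NFIC between -0.45 and 0.28. With FOXA1 hairpins NFIB ran between -0.38 and 0.22 and NFIA between -0.10 and 0.33. Between NFIB and RBPJ hairpins NFIA ran between -0.54 and 0.55, NFIC between -0.55 and 0.17 and NFIX between -0.38 and 0.79, and NFIC between NFIB and FOXA1 hairpins between -0.19 and 0.029. The cause was not tested. With 2 libraries per target, small changes could not be seen.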
